A study of Mus musculus with 2 samples.

Results

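The genes of the proteasome were taken as the protein-coding mouse genes whose symbols start with Psma, Psmb, Psmc, Psmd, Psme, Psmf or Psmg followed by a digit. In the RefSeq table used here 51 of 21883 protein-coding genes met this rule. They comprised 7 genes of the 20S alpha ring, 7 of the constitutive 20S beta ring, 3 immunoproteasome genes (Psmb8, Psmb9 and Psmb10), 6 ATPase and 11 non-ATPase genes of the 19S regulatory particle, 3 of 19S and 4 of 20S assembly chaperones, and 6 of activators and an inhibitor. The tissue-specific core genes Psma8 and Psmb11 and a pair of genes that met the rule by symbol but encode no subunit, Psmc3ip and Psme3ip1, made up the rest. Psmc3ip encodes a partner of the meiotic recombinases, and Psme3ip1 a protein that binds the nuclear activator PA28 gamma.

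Open chromatin had been assayed with ATAC-seq, where a transposase cuts accessible DNA and tags it for sequencing, in lineage-negative, c-Kit-positive cells sorted from C57BL/6 fetal liver at embryonic day 14.5. The control library (replicate 1) came from CD45.2(+) Brd9fl/fl cells and the knockout library (replicate 2) from CD45.2(+) Vav1-iCre Brd9fl/fl cells, so both carried the floxed Brd9 alleles. The iCre recombinase is expressed from Vav1 regulatory DNA across the blood lineages and excises the floxed segment of Brd9 there. BRD9 is a bromodomain protein of the non-canonical form of the BAF remodeller. The sources used here do not state which exons are floxed, how complete the deletion was or how many embryos each library held. Each library was made from 150000 cells, and each genotype had 1 library, so every difference below is between 2 libraries, without a replicate check and without a p-value.

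The proteasome is the protease that degrades ubiquitin-tagged proteins. Its 20S core is a barrel of alpha and beta rings, with the active sites on PSMB5, PSMB6 and PSMB7. The 19S particle caps the barrel, where ATPases unfold the substrate and non-ATPase subunits bind and remove ubiquitin. In blood and immune cells and under interferon, PSMB8, PSMB9 and PSMB10 can replace the constitutive active subunits, and PA28 alpha and beta, encoded by Psme1 and Psme2, can open the barrel in place of the 19S cap. Most subunits are encoded by genes active in nearly every cell, many with promoters that lie in CpG-rich DNA, and NFE2L1 raises many of them together through antioxidant response elements when proteasome activity is short.

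The promoters of the members on which the results turn are shown first. Each sequence holds the 200 bases before the annotated start, 5′ to 3′ in the direction of the gene, from RefSeq on GRCm38.p6, the assembly of mm10. Capitals mark matches, on either strand, to 4 motifs. The antioxidant response element was searched as TGACNNNGC and the CCAAT box by the letters of its name. The motif of ETS factors was searched as CCGGAAG. The GC box, a site of SP1 and its relatives in many promoters, was searched as GGGCGG. The immunoproteasome promoters and that of Psme2 are given because they stand for the interferon-linked forms:

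Psmb8, chr17:34197995-34198194, plus strand: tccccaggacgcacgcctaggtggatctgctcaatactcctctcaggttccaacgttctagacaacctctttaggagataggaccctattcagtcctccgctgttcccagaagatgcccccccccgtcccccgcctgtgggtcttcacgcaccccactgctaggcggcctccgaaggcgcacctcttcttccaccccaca

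Psmb9, chr17:34187331-34187530, minus strand: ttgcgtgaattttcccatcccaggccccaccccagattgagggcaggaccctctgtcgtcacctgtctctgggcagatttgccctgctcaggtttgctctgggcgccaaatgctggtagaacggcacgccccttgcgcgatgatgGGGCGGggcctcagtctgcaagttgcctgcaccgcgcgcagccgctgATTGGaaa

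Psmb10, chr8:105938393-105938592, minus strand: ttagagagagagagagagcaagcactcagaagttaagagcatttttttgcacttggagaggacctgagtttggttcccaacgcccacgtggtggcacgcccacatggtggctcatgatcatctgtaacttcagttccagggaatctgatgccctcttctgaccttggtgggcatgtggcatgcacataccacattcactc

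Psme2, chr14:55591102-55591301, minus strand: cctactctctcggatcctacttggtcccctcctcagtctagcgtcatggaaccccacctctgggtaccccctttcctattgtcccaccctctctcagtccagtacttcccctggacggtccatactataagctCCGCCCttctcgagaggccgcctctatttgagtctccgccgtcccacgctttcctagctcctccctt

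The following 3 promoters belong to the members with the lowest scaled ratios of the core and of the regulatory particle, and to the member with the highest:

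Psmb5, chr14:54617996-54618195, minus strand: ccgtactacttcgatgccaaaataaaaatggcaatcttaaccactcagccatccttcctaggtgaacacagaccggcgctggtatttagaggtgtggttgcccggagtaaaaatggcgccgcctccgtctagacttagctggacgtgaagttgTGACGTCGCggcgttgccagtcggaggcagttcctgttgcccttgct

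Psmd14, chr2:61711494-61711693, plus strand: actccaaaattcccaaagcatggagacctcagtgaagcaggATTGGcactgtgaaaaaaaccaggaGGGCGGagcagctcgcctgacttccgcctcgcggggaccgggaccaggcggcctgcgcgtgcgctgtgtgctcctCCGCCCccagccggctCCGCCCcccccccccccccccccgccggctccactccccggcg

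Psmd8, chr7:29180674-29180873, minus strand: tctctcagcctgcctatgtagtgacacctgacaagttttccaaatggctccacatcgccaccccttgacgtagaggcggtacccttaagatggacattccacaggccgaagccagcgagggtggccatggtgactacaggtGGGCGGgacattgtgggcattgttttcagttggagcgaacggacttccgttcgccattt

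The last 4 promoters are 19S genes with an ETS match, which few core genes had:

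Psmc1, chr12:100110002-100110201, plus strand: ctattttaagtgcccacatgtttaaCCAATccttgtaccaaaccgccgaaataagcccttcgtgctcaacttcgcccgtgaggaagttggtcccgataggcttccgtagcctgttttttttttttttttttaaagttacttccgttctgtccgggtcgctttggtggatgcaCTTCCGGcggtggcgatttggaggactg

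Psmc6, chr14:45329624-45329823, plus strand: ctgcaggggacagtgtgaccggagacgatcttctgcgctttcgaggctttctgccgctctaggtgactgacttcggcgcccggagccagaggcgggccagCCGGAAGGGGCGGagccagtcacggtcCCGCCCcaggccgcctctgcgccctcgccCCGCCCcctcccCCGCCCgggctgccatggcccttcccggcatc

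Psmd11, chr11:80428415-80428614, plus strand: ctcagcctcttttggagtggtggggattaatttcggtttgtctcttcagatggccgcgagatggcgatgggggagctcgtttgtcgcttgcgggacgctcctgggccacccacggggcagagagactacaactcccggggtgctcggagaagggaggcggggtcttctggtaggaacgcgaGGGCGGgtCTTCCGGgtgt

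Psmd12, chr11:107479328-107479527, plus strand: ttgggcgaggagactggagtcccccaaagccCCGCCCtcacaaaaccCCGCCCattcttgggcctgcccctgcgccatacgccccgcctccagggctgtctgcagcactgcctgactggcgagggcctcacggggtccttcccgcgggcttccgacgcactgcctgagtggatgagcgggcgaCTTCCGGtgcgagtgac

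In the Psmc6 promoter the ETS match runs without a gap into a GC box, so the capitals there hold both. No match to any of the 4 motifs lay in the printed bases of Psmb8 or Psmb10.

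Almost all proteasome genes lay at an open site in both libraries. The deposited peaks of both lists were merged where they shared at least 1 bp, and a region no farther than 1 kb from a gene's end was assigned to that gene. Of the 51 members, 46 had such a gene-end region in both lists (90.2%, exact 95% binomial interval 78.6 to 96.7), against 47.4% of all protein-coding genes. Psmf1 had a gene-end region in the control list alone, where the background share was 3.42%. Psma6, Psma8, Psmb11 and Psme2b had one in neither list, as had 47.3% of all genes. No member had one in the knockout list alone, against 1.79% of all genes. Regions at 15 of the 46 members (32.6%, 19.5 to 48.0) also reached within 1 kb of an end of another protein-coding gene, as at 30.8% of other genes with a shared gene-end region. The reads of those 15 regions cannot be assigned to either gene.

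For 2 of the members without a shared gene-end region, the site lay at an annotated start inside the gene. Psma6 encodes an alpha-ring subunit. Its second annotated start lies in a shared region at chr12:55398259-55399525, where the control had 124 summit reads and the knockout 73. Summit reads are the reads stacked at the highest point of a peak. Knockout over control reads, divided by the relative depth of the knockout library, 0.640, gave 0.919 (95% interval 0.679 to 1.24). This is called the scaled ratio, and its interval covers counting error only. Scaled ratios are given below with this interval after them. Psmf1 encodes PI31, which inhibits the core in vitro. Its annotated start lies in a shared region at chr2:151740834-151741705 with 57 control and 23 knockout reads, a scaled ratio of 0.630 (0.371 to 1.04). The region that put Psmf1 in the control list alone was a narrow site (chr2:151742927-151743470) with 37 reads (26.1 to 51.0). Psma8, a testis-specific alpha subunit, and Psmb11, the beta subunit of the thymus, had no region at the gene; the nearest lay 20254 and 6972 bp away. Psme2b is a retrogene copy of Psme2, and its nearest region was 70649 bp away. Psma3 was the reverse case: its gene-end region (123 and 71 reads) lies at the outer end of the gene, while the region at the start in the promoter table, chr12:70974304-70975309, had 314 and 197 reads and a scaled ratio of 0.980 (0.816 to 1.17).

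Where the members had a site, its height was like that of other genes. Control summit reads at the 46 members ran from 27 to 645 with a median of 128, against a median of 120 over 10327 other genes. In the knockout they ran from 16 to 535 with a median of 79.5, against 74. The median region spanned 1014 bp at members and 1038 bp at other genes. Of 39 members with an annotated start in the promoter table, 29 (74.4%, 57.9 to 87.0) had their control summit within 200 bp of it, as had 67.1% of other genes, and the median summit stood at −33 bp.

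**Figure D1:**
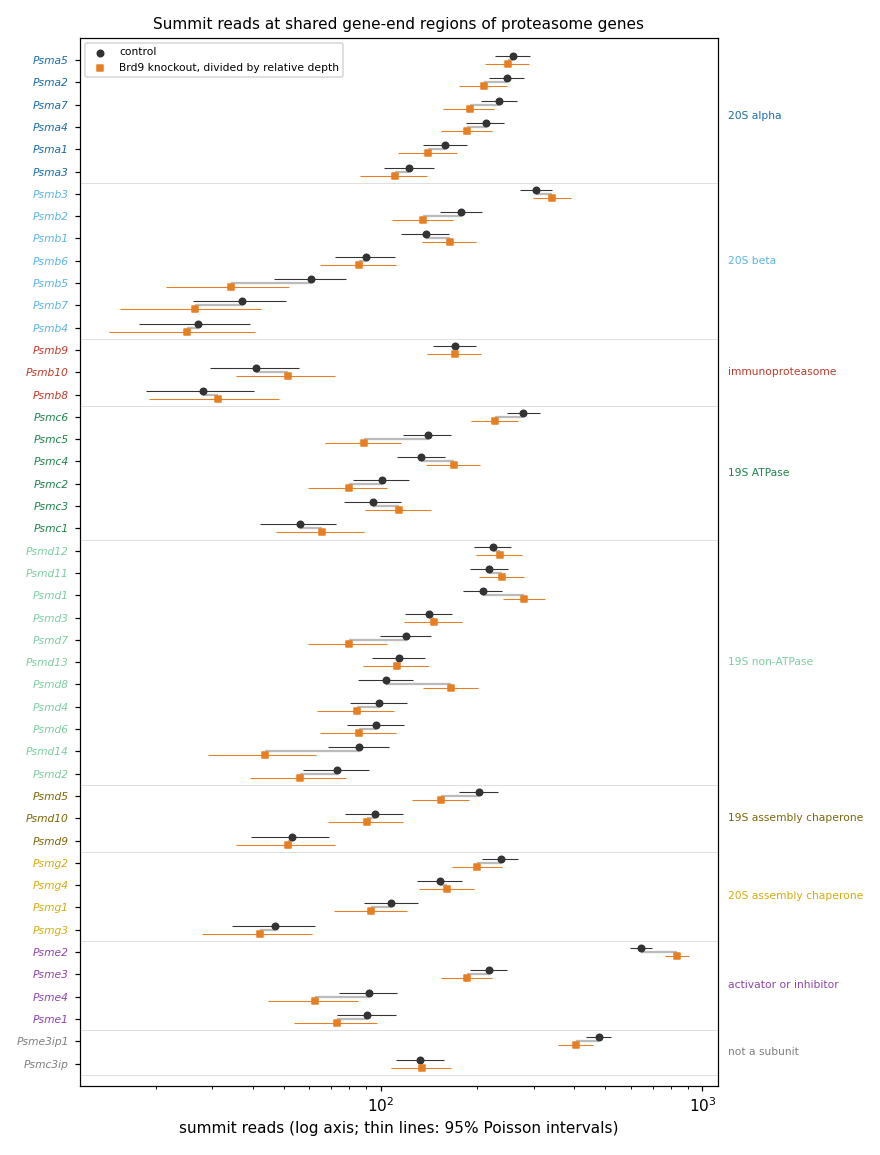
Summit reads (x axis, log scale) at the shared gene-end region of each of 46 proteasome genes (y axis, grouped and coloured by class), for the control (black circles) and the Brd9 knockout (orange squares, divided by the relative depth of 0.640). Thin lines are exact 95% Poisson intervals; Psme2 has the most reads and Psmb4 the fewest, and in most rows the intervals of the libraries overlap.

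The alpha ring, which forms the gate of the core, was the most even class. Its 6 genes with a region held 123 to 258 control and 71 to 159 knockout reads. Psma5 had the most, 258 control and 159 knockout reads, and the highest ratio of the class, 0.962 (0.785 to 1.18). Psma3 had the fewest, 123 and 71 (0.901, 0.663 to 1.22), in a gene-end region away from its start in the promoter table. The region at that start had more reads and a higher ratio than Psma5, 314 and 197 (0.980, 0.816 to 1.17). Neither that region nor the one at the second start of Psma6 is in the values of the class. Psma7 had the lowest ratio, with 234 and 121 reads and 0.808 (0.643 to 1.01), in a region also at an end of Ss18l1. The region of Psma2 is also at an end of Mrpl32, and that of Psma4 at ends of Hykk and AY074887. The reads of these regions cannot be assigned to the alpha gene alone. All 6 ratios were below 1, against 48.4% of other genes with a shared gene-end region, and every single interval included 1. Pooled over the class, 1233 control and 694 knockout reads gave 0.879 (0.800 to 0.965). The log2 ratios had an SD of 0.09, below the 0.17 that counting error alone would give.

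The constitutive beta genes differed more among themselves. Psmb3 had the most, 304 control and 219 knockout reads, with a ratio of 1.13 (0.941 to 1.34), in a region that also lies at an end of Pcgf2. Psmb4 had the fewest of all members, 27 and 16, with a ratio of 0.925 (0.466 to 1.78). Psmb1 stood highest in ratio, with 138 and 105 reads and 1.19 (0.913 to 1.54). These 3 intervals include 1, so a difference was not detectable there at this depth. Psmb5, which encodes the subunit with chymotrypsin-like activity and the main target of bortezomib, had 61 control and 22 knockout reads, with a ratio of 0.563 (0.329 to 0.930). Its summit stood at −68 bp from the start in both libraries, and the antioxidant response element printed above starts at −47 bp. Psmb2 encodes a subunit with no active site; it had 178 and 87 reads and a ratio of 0.763 (0.584 to 0.992). Psmb6, of the caspase-like site, had 90 and 55 (0.954, 0.670 to 1.35), and Psmb7, of the trypsin-like site, 37 and 17 (0.718, 0.379 to 1.31). Over all 13 core genes with a gene-end region the pooled ratio was 0.918 (0.854 to 0.985) from 2068 and 1215 reads. Of these 13, 11 were below 1, against 48.4% of other genes with a shared gene-end region. With regions at annotated starts the pooled ratio of the core was 0.927 (0.867 to 0.990). When only the strongest peaks were kept, as many in the one list as in the other, the interval included 1 (0.932, 0.866 to 1.003). Psmb4, Psmb5 and Psmb7 had no shared gene-end region left there.

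The immunoproteasome genes had ratios from 1.001 to 1.26 and no interval that left out 1. With depth set by the median shared gene-end region, the ratio of Psmb9 was 0.994 (0.774 to 1.27). Psmb9 shares its promoter with Tap1, which encodes a transporter of antigenic peptides and is read in the other direction. The region at chr17:34186986-34188291 covered both starts and had 170 control and 109 knockout reads, a ratio of 1.001 (0.780 to 1.28). The promoter of Psmb9 printed above spans most of the 226 bp between the starts. Psmb8 had 28 and 20 reads (1.12, 0.596 to 2.05) in a region that also lies at the other end of Tap1. Its summits stood at −351 bp in the control and −42 bp in the knockout, so the counts are from different points of the region. Psmb10 had 41 and 33 reads (1.26, 0.770 to 2.04), and its control summit lay 1338 bp inside the gene rather than at the start. A second Psmb10 region, at its 3′ end (chr8:105935319-105935941), stood in the control list alone with 24 reads (15.4 to 35.7). Psmb8 and Psmb10 were thus among the weakest sites of the set, at percentiles 9.44 and 16.5 of control reads over all genes with a shared gene-end region, while Psmb9 stood at 64.3. Psmb8 and Psmb10 had regions of 1772 and 1712 bp, where the widest of any member was 1845 bp.

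The pooled ratio of the immunoproteasome genes was 1.06 (0.862 to 1.30), from 239 and 162 reads. Divided by that of the core it was 1.15 (exact conditional 95% interval 0.927 to 1.43), and divided by that of the regulatory subunits 1.07 (0.858 to 1.32). Both intervals include 1. Against Psmb5, Psmb6 and Psmb7, the genes whose products these subunits replace, the ratio of ratios was 1.36 (0.975 to 1.89), a comparison chosen after the values were seen. In the same part of the major histocompatibility complex, the start of Tap2 had 35 and 32 reads (1.43, 0.856 to 2.37) and a region inside Tap2 had 130 and 100 (1.20, 0.916 to 1.57). No region of this stretch was listed in 1 library alone.

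**Figure D2:**
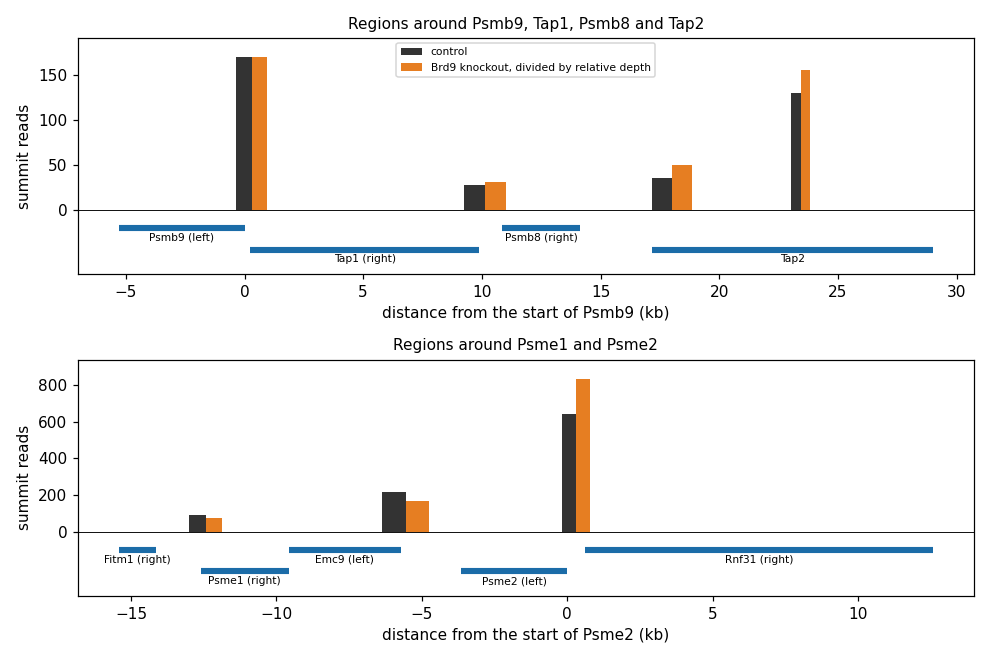
Summit reads (y axis) of every merged region around the immunoproteasome genes in the major histocompatibility complex (top) and around the PA28 genes (bottom), by distance in kb from the start of Psmb9 or Psme2 (x axis). Bars span each region, the left part for the control (black) and the right part for the knockout divided by the relative depth (orange), and blue lines are genes with the direction of reading where the promoter table gives it; the region before Psme2 is the tallest.

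The genes of PA28 alpha and beta lie on chromosome 14 with 5913 bp between them, a stretch that holds Emc9, and their sites differed in height. Psme2 had the most of all members, 645 control reads (Poisson interval 596 to 697) and 535 knockout reads (491 to 582), with a ratio of 1.30 (1.15 to 1.45). By the authors' deposited fold its ratio was 1.15. Its region, chr14:55590909-55591878, also lies at an end of Rnf31, the ubiquitin ligase gene of the linear-chain complex, which is read the other way. The summit stood at −276 bp from the start of Psme2 in the control and −277 bp in the knockout. Psme1 had 91 and 47 reads and a ratio of 0.807 (0.555 to 1.16). The region between them, at an end of Emc9, had 218 and 107 reads and 0.767 (0.602 to 0.970), on the other side of 1 from Psme2. Of the other activators, Psme3, which encodes PA28 gamma of the nucleus, had 217 and 119 reads (0.856, 0.679 to 1.08). Psme4, which encodes the activator PA200, had 92 and 40 (0.679, 0.456 to 0.994). Pooled over Psme1 and Psme2, 736 and 582 reads gave 1.23 (1.11 to 1.38). Divided by the pooled ratio of the core this was 1.35 (1.18 to 1.54), an interval above 1, in a comparison outside those planned. Most of these reads are those of Psme2, while the ratio of Psme1 was below 1. Over the 4 activator genes with a shared region the pooled ratio was 1.11 (1.01 to 1.22), though 3 of the 4 ratios were below 1.

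The 19S regulatory genes spread in both directions and held the members with the highest and the lowest ratio. Psmd8, which encodes the lid subunit RPN12, had 104 control and 106 knockout reads, a ratio of 1.59 (1.20 to 2.11); its region is also at an end of Catsperg1. Psmd1, which encodes RPN2, a scaffold of the base, had 208 and 179 (1.34, 1.09 to 1.65). Psmd14 encodes the deubiquitinase RPN11, which cuts ubiquitin chains off the substrate; it had 86 control and 28 knockout reads, a ratio of 0.508 (0.319 to 0.787). The Psmd14 summits lay 134 bp after the start in the control and 924 bp after it in the knockout, so the count in the knockout is from another point of the same region. Psmd7, which encodes RPN8, the partner of RPN11, had 120 and 51 (0.664, 0.469 to 0.928). Of the other non-ATPase genes, Psmd12 had the most, 223 and 150 (1.05, 0.848 to 1.30), and Psmd2 the fewest, 73 and 36 (0.770, 0.502 to 1.16). The 5 not named here (Psmd3, Psmd4, Psmd6, Psmd11 and Psmd13) had ratios whose intervals included 1.

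The ATPases form the ring that pulls substrates into the core. Psmc5 had 140 control and 57 knockout reads, a ratio of 0.636 (0.459 to 0.871), in a region shared with an end of Ftsj3. Psmc6 had the most, 278 and 145 (0.815, 0.662 to 0.999). Psmc4 stood highest in ratio with 134 and 108 (1.26, 0.968 to 1.63), and Psmc1 had the fewest reads, 56 and 42 (1.17, 0.766 to 1.78). Psmc2 had a pair of shared gene-end regions, one at each of its annotated starts: the outer, which is also at an end of Dnajc2, had 101 and 51 reads (0.789, 0.552 to 1.11) and the inner 81 and 48 (0.925, 0.634 to 1.34). Over the 6 ATPase genes 3 ratios were above and 3 below 1. Pooled over all 17 regulatory genes, 2287 and 1454 reads gave 0.993 (0.929 to 1.06). Relative to the core this was 1.08 (0.981 to 1.19), an interval that includes 1. The spread within the class was wider than counting error gives: the SD of the log2 ratios was 0.43, where counting error alone would give 0.22. Over 3421 other genes with 92 to 211 control reads the SD was 0.29 and counting 0.20. The regulatory genes ran more widely, from 56 to 278 control reads. Over 9189 other genes with 27 to 645 control reads the SD was 0.33 and counting 0.24.

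**Figure D3:**
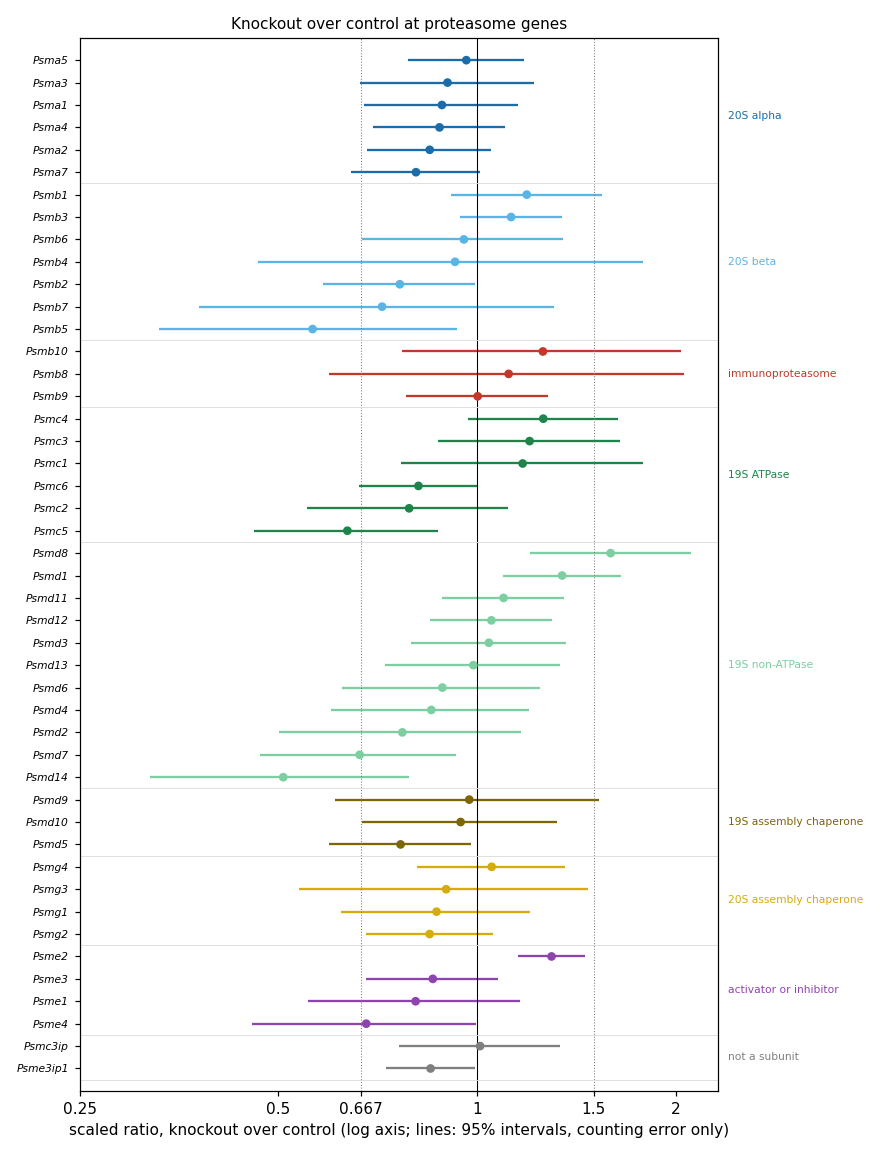
Scaled ratio of knockout over control (x axis, log scale) of each of 46 proteasome genes (y axis, grouped by class), with exact 95% intervals for counting error only. The solid line is 1 and the dotted lines are 1.5-fold; Psmd8 lies beyond the upper and Psmd14, Psmb5, Psmc5 and Psmd7 beyond the lower dotted line.

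Among the assembly chaperones, Psmd5 alone had an interval that left out 1. Psmg1 to Psmg4, whose products build the core, had ratios from 0.847 for Psmg2 (236 and 128 reads) to 1.05 for Psmg4 (153 and 103). Psmg3 had the fewest reads, 47 and 27. The region of Psmg1 is also at an end of Brwd1, and that of Psmg2 at an end of Cep76. Of the chaperones of the 19S base, Psmd5 had 202 and 99 reads and 0.765 (0.596 to 0.978), and Psmd9 had 53 and 33 (0.972, 0.610 to 1.53). Psmd10, which encodes gankyrin, is the one X-linked member. It had 96 and 58 reads (0.944, 0.669 to 1.32), and the median log2 ratio of other X-linked genes was −0.07, against 0.01 on autosomes. Of the members that are no subunits, Psmc3ip had 133 and 86 reads (1.01, 0.761 to 1.33) and Psme3ip1 476 and 259 (0.850, 0.728 to 0.991). The region of Psmc3ip is also at an end of Retreg3, and that of Psme3ip1 at an end of Rspry1. By the authors' deposited fold the ratio of Psme3ip1 turned to 1.05.

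By counts and by the median, the ratios of the members lay below those of other genes, while the pooled ratio of the set, 0.967 (0.932 to 1.005, from 7143 control and 4425 knockout reads), had an interval that includes 1. Without Psme2, which holds the most reads, the pooled ratio was 0.935 (0.898 to 0.973). The values of the set include Psmc3ip and Psme3ip1, which encode no subunit. Without these genes 44 members were left, with a pooled ratio of 0.975 (0.938 to 1.01) and 8 intervals below 1. Of the 46, 5 were past 1.5-fold either way (10.9%), against 9.53% of all genes with a shared gene-end region, a share near the background. By direction, 1 had a scaled ratio of at least 1.5 (Psmd8), against 4.95% of all such genes, and 4 had one of at most 1/1.5 (Psmd14, Psmb5, Psmc5 and Psmd7), against 4.59%. These counts come to 2.17% and 8.70% of the members. An interval that leaves out 1 was found for 12 members (26.1%), against 16.9% of all genes. An interval above 1 was found for Psmd8, Psmd1 and Psme2 (6.52%, against 9.32% of all genes). An interval below 1 was found for 9 members, or 19.6%, against 7.60% of all genes; these were Psmd14, Psmb5, Psmc5, Psme4, Psmd7, Psmb2, Psmd5, Psmc6 and Psme3ip1. Ratios were below 1 at 30 members and above 1 at 16, where the other genes had 4999 below and 5328 above. The median log2 ratio of the members was −0.15, against 0.01 for the other genes. Among genes of like height, with 92 to 211 control reads, the medians were −0.12 for 22 members and −0.05 for 3421 other genes, and the pooled ratios 0.972 (0.916 to 1.03) and 0.985 (0.980 to 0.990). The gap was smaller by the authors' deposited fold, the ratio of the summit to its local background: its median log2 ratio of knockout over control was −0.035 for the members and 0.01 for the other genes. A region had to be called in both lists to have a ratio, which leaves out sites listed in 1 library alone.

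**Figure D4:**
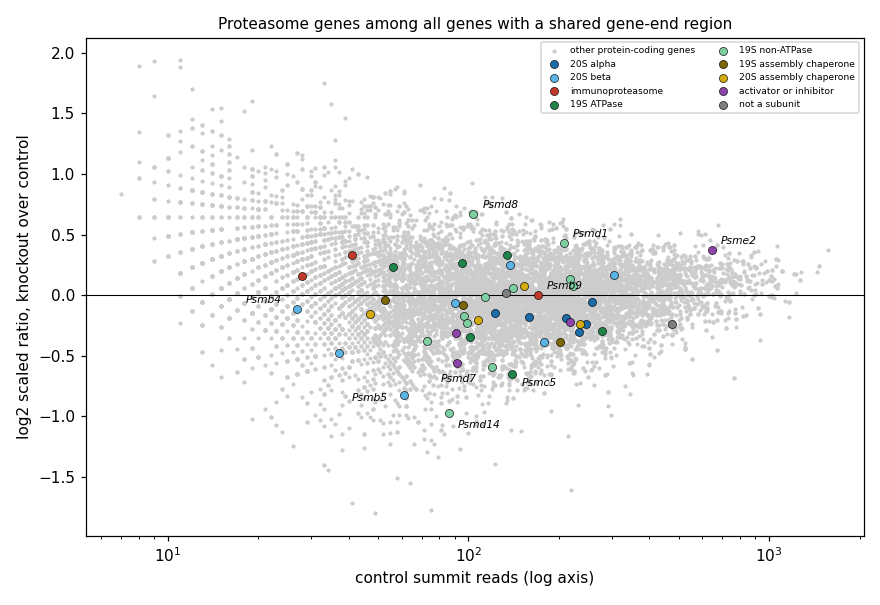
Log2 scaled ratio of knockout over control (y axis) against control summit reads (x axis, log scale) for the 46 proteasome genes (coloured by class) and the other protein-coding genes with a shared gene-end region (grey). The members lie within the grey cloud, with a median of −0.15 against 0.01; genes with few control reads can only appear if the knockout list also held a peak.

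Genes that work with the proteasome had a median nearer to that of the other genes. Of 26 listed partners and regulators 25 were in the gene table, and 23 had a shared gene-end region with a median log2 ratio of −0.03; none passed 1.5-fold. Nfe2l1, whose product activates proteasome genes, had 424 and 299 reads (1.10, 0.947 to 1.28). Adrm1, the ubiquitin receptor of the 19S base, had 227 and 171 (1.18, 0.959 to 1.44). Usp14, a deubiquitinase that docks on the base, had 337 and 272 (1.26, 1.07 to 1.48), and Vcp, the unfoldase upstream of the proteasome, 506 and 377 (1.16, 1.02 to 1.33). Nfe2l2, of the oxidative stress response, had 1166 and 658 (0.881, 0.800 to 0.971). Ecpas, which encodes a proteasome adaptor, had no gene-end region. Of 11 antigen-processing genes 10 had a shared region, with a median log2 ratio of −0.09. Tapbpl was past 1.5-fold (29 and 12 reads; 0.646, 0.300 to 1.31). Tapbp, the tapasin gene, had an interval below 1 (157 and 74; 0.736, 0.551 to 0.976). Nlrc5, the activator of class I genes, stood in the knockout list alone with 11 reads.

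Of the motifs searched in the promoters, the ETS motif had the largest gap between core and regulatory genes. The window ran from 250 bases before to 50 after each annotated start, and 43 of 51 members were in the table. The ETS motif was found in 16 of 43 members (37.2%), against 12.9% of 17491 genes and 21.7% of 8434 genes with a shared gene-end region. It was in 9 of 14 regulatory genes (Psmc1, Psmc2, Psmc6, Psmd2, Psmd4, Psmd6, Psmd11, Psmd12 and Psmd13), in 1 of 11 core genes (Psma6) and in none of the 3 immunoproteasome genes. In the promoters printed above its first base stands at −28 bp in Psmc1, −100 bp in Psmc6, −11 bp in Psmd11 and −17 bp in Psmd12. A CCAAT box was in 6 of 11 core and 4 of 14 regulatory genes, and in 37.2% of the members, 42.3% of all genes and 43.8% of genes with a shared gene-end region. GC boxes were in 55.8% of the members, 49.2% of all genes and 70.7% of genes with a shared gene-end region.

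The antioxidant response element was no more frequent at these starts than elsewhere, with 6 of 43 members (Psmb5, Psmb6, Psmc6, Psmd12, Psmd9 and Psme4; 14.0%) against 14.8% of all genes and 17.0% of those with a shared gene-end region. The interferon-stimulated response element was in 5 members (Psmb3, Psmd4, Psmd9, Psme1 and Psmg4; 11.6%, against 3.94% of all genes and 3.34% of those with a shared gene-end region), none of them an immunoproteasome gene. The E-box (CACGTG), its own reverse complement, was in 5 members, Psmb10 among them (11.6%, against 8.91% of all genes and 12.0% of those with a shared gene-end region). The motif of nuclear respiratory factor was in 2 members (4.65%, against 1.47% of all genes and 2.60% of those with a shared gene-end region), and that of YY1 in 2 (4.65%, against 612 of 17491 genes and 6.24% of those with such a region). The cAMP response element was in none, against 2.54% of all genes. Members with an ETS match had a median log2 ratio of −0.20 over 15 genes, and those without −0.08 over 24. This was not particular to the ETS motif. For the CCAAT box the medians were −0.20 over 14 and −0.07 over 25, and for the GC box −0.18 over 24 and −0.11 over 15. Medians were also lower with a match for the antioxidant response element, nuclear respiratory factor, YY1 and the E-box. For the interferon-stimulated response element the median was higher with a match (−0.04 over 5, against −0.15 over 34). A match is a description of letters and not a bound site.

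**Figure D5:**
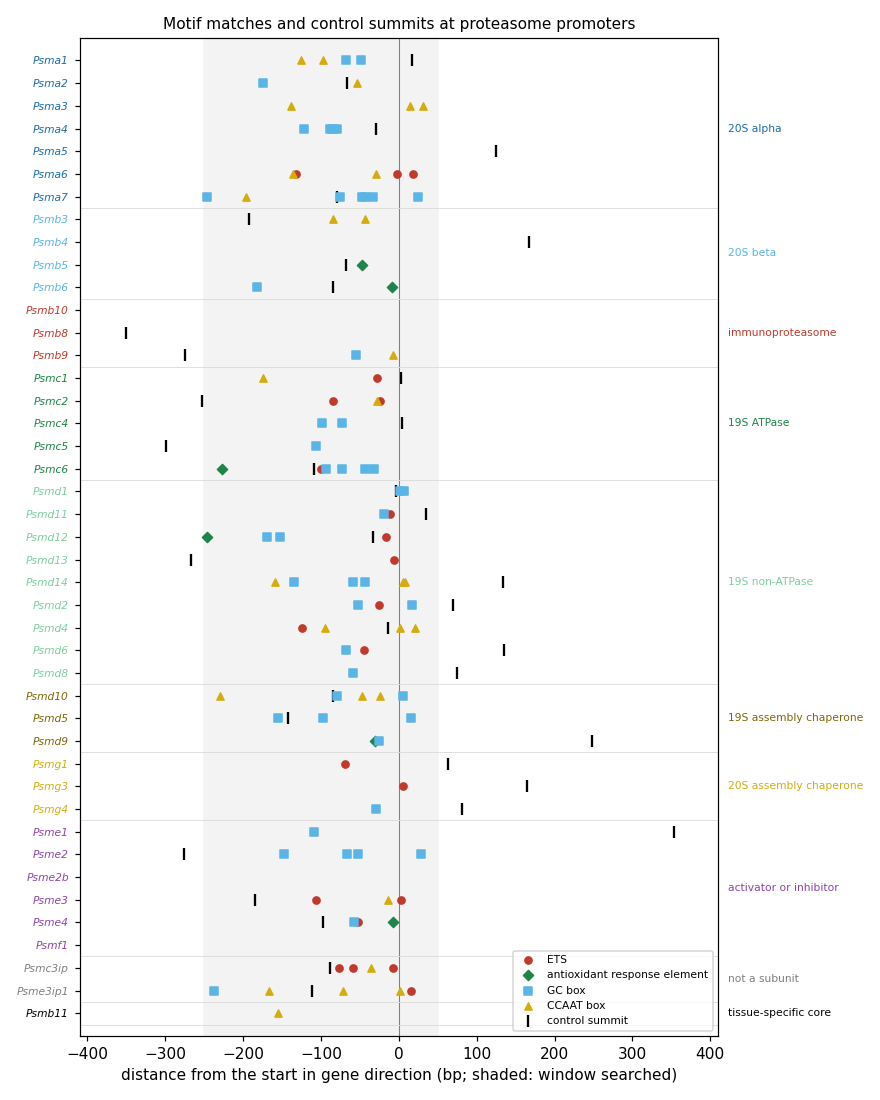
Matches to 4 motifs (coloured symbols) and control summits (black ticks) at the promoters of the 43 proteasome genes in the promoter table (y axis, grouped by class), by distance in bp from the start in gene direction (x axis). The window searched is shaded; genes with more than 1 start have their matches drawn from each, summits beyond the axis are left out, and 9 of the 16 genes with a red ETS circle encode 19S subunits.

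Away from gene ends, 6 of the 51 members (11.8%) held a site inside the gene, against 26.8% of other protein-coding genes, which are longer (median length 17183 bp, against 11567 bp). In these 6 members there were 4 shared regions, 3 control-only regions and 1 knockout-only region. Besides the starts of Psma3, Psma6 and Psmf1, the shared one lay in Psmd14 (chr2:61759570-61760342), with 39 and 19 reads and a ratio of 0.761 (0.415 to 1.35). The control-only regions lay in Psma6, Psmb2 and Psme4, with 14, 24 and 20 reads, and the knockout-only region in Psma6, with 12.

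The control list held 25330 peaks with a median of 37 summit reads, and the knockout list 22348 with 28. Markers of the labelled and of other cell types were read at gene ends in the same way. Kit had a gene-end region in both lists (109 and 65 reads), as had 6 other of 10 stem and progenitor markers, with a summed 862 and 522 reads, while Cd34, Gata2 and Fli1 had none. Their ratios ran in both directions: Tal1 had 214 and 61 reads (0.445, 0.329 to 0.594) and Lmo2 62 and 20 (0.504, 0.288 to 0.846), against 30 and 38 for Spi1 (1.98, 1.19 to 3.31) and 336 and 283 for Lyl1 (1.32, 1.12 to 1.55). Of 7 erythroid markers 6 had one (1922 and 1075 reads), with 4 intervals below 1, lowest for Car2 (0.598, 0.470 to 0.756), and 1 above, for Nfe2 (1.19, 1.02 to 1.38). Hepatocyte markers had 3 of 7 (461 and 354 reads), with Alb, Afp, Ttr and Hnf4a in neither list. Their 3 ratios were above 1, with an interval above 1 for Apoa2 (1.21, 1.01 to 1.44). Macrophage markers had 2 of 5 (498 and 353), with Adgre1, Csf1r and Cd68 in neither. Axl had 486 and 332 reads (1.07, 0.925 to 1.23) and Mertk 12 and 21 (2.73, 1.28 to 6.09). Endothelial markers had 1 of 5 (51 and 25) and stromal markers 1 of 4 (29 and 19), both with intervals that include 1. Tek and Col1a2 stood in the control list alone, and Kdr had separate regions in each list. The part of these marker differences in the ratios of the proteasome genes was not tested.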

How the data were processed

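ATAC-seq peak lists of 1 control and 1 knockout library were used. Per the submitters' processing notes the tools were MACS2 2.2.7.1, Bowtie2 2.4.4, Trimmomatic 0.39, deepTools 3.5.1 and Picard 2.26.2, on mm10, without roles or settings; read shifting and duplicate removal are not stated in the sources used here. Peaks were listed per sample. The deposited fold is a ratio of summit pileup to local background, with a pseudocount of 1 added to both. The authors' −log10 p-value tests that pileup, and their deposited −log10 q-value is at least 1.31 in the control and 1.32 in the knockout list. The deposited score, a rescaled q-value, was not used.

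Summit reads were recovered as the whole number that, with the deposited fold, gives the deposited −log10 p-value. This worked for 100% of peaks to within a relative misfit of 1e-05, and was tested on simulated peaks. Relative depth, 0.640, is the ratio of the lowest backgrounds, 0.971 in the knockout and 1.52 in the control list, and assumes that reads were extended alike; total depth is unknown. Where a gene had several shared gene-end regions, the one with the most reads was taken. Regions with over 3000 summit reads were left out. Gene ends and promoters came from RefSeq tables of GRCm38.p6. Intervals are exact 95% intervals for counting error only: conditional binomial for ratios, Poisson for reads, Clopper-Pearson for shares. No molecular identifiers are recorded, so reads need not be independent molecules.

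Members, classes and lists were chosen with earlier results of these data known. Psme3ip1 met the rule but was in no listed class, and was put with Psmc3ip after the files were read. Named in the text are members without a shared region, immunoproteasome and PA28 genes, the extremes of each class in ratio and control reads, and members past 1.5-fold or with an interval that leaves out 1. Other gene-end distances, peak thresholds, depths, summit measures and fold thresholds were tried. Computation used pandas 2.3.3, SciPy 1.17.1, NumPy 2.4.6 and matplotlib 3.10.9 in Python 3.11.15.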

Additional observations from a re-analysis of the deposited data

How the results depend on the processing

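Values were recomputed under 8 other settings and 3 more chosen after seeing the data (regions at annotated starts, members without those whose summits lie over 200 bp apart, and the set without Psme2). The pooled ratio of the set moved between 0.935 and 0.976; its interval includes 1 as reported, and left out 1 without Psme2 (0.935, 0.898 to 0.973) and with depth set by the median shared gene-end region (0.960, 0.925 to 0.997). The core interval included 1 with equal numbers of top peaks (0.932, 0.866 to 1.003), where Psmb4, Psmb5 and Psmb7 dropped out. With that setting immunoproteasome over regulatory also turned to 0.990 (0.764 to 1.28), but the immunoproteasome class was then Psmb9 alone. Regulatory and immunoproteasome intervals, and those between the core, regulatory and immunoproteasome classes, included 1 under every setting that gave one. The ratio of PA28 alpha and beta to the core was not recomputed. With the deposited fold in place of summit reads, the median log2 ratio of the members was −0.035, 1 member was past 1.5-fold (Psmd14), and Psme3ip1 had a ratio of 1.05 in place of 0.850; the cause was not tested. With 11174 top peaks from each list 40 members were left and 3 were past 1.5-fold, as fewer regions were tested. The count rose to 6 with gene ends within 2.5 kb, and also to 6 with regions at annotated starts. The region at the annotated start of Psmf1 (0.630) is past that fold. At a threshold of 2-fold 0 members were called. The share of all genes past the fold was not recomputed under these settings, so these counts have no background beside them. No paired analysis was possible because the control and knockout libraries share no replicate number and each group has 1 library. Low counts leave wide intervals at Psmb4, Psmb7, Psmb8, Psmb10 and Psmg3, and total depth is unknown.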
